A study of Mus musculus with 12 samples.

Results

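The phagocyte NADPH oxidase was followed through 5 of its genes, Cybb, Cyba, Ncf1, Ncf4 and Rac2, a set given by gene symbol, with no threshold on measured values, at a time when earlier results of these data were known. All 5 were found among the 24421 gene symbols of the count table, and all 5 passed the filter on low counts that left 11468 genes for testing. The libraries held total RNA of macrophages (BMDMs) grown out of mouse bone marrow in the growth factor M-CSF at 100 ng/mL for 5 days. The mice were C57BL/6 with no genetic change named, and the cells of each of 3 mice (A, B, C) were split over all 4 groups, so that every group held 3 libraries. The DMSO Ova group received the solvent DMSO (labelled 5%) and free ovalbumin, and the iBET Ova group received 5.0 µM I-BET151 and free ovalbumin. The DMSO IC and iBET IC groups received the same solvent or drug with immune complexes (IC) of ovalbumin and anti-ovalbumin IgG. Exposure lasted 4 h in all groups. I-BET151 (iBET) blocks the bromodomains through which BET proteins bind acetylated histones, and immune complexes cross-link Fcγ receptors on the macrophage surface. There was no unstimulated group, and the sources differ on whether the drug was added together with the stimulus or shortly before it.

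The oxidase transfers electrons from NADPH across the phagosome membrane to oxygen and so makes superoxide. Cybb encodes gp91phox, the catalytic subunit, and Cyba encodes p22phox, its membrane partner; together they form flavocytochrome b. Ncf1 (p47phox, the organiser) and Ncf4 (p40phox, which binds phosphoinositides of the phagosome) wait in the cytosol and move to the membrane on activation. Rac2 is a small GTPase that can complete the complex. Fcγ receptor cross-linking is a classical trigger of this assembly in macrophages, which acts on the proteins and need not involve transcription.

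The transcripts of the cytosolic subunits Ncf1 and Ncf4 were lower in macrophages given iBET, whereas those of the membrane pair and of Rac2 did not pass the test in any comparison. Ncf1 fell to 0.50-fold of its DMSO level with free ovalbumin and to 0.63-fold with immune complex, and Ncf4 fell to 0.66-fold and 0.65-fold (n = 3 libraries a group). Thus 2 of the 5 genes were called, both lower, in each iBET comparison, where called means an adjusted p under 0.05 in edgeR's quasi-likelihood test with Benjamini-Hochberg adjustment over all genes tested. The background was wide: 31.3% of all genes were called with iBET in Ova (14.2% lower) and 34.8% with iBET in IC (15.8% lower), so 2 of 5 is near the general share. Immune complex against free ovalbumin called 0 of the 5 genes in DMSO, where 1.22% of all genes were called, and 0 of 5 in iBET, where 0.349% were called. At an unadjusted p under 0.05 it was 1 of 5 in DMSO (11.7% of all genes) and 0 of 5 in iBET (7.5%), and DESeq2 also called 0 of 5 in each. With the mouse as a replicate block, however, Ncf1 was called (lower) with IC in DMSO in both edgeR and DESeq2, and with 1 surrogate variable Ncf1 (lower) and Cyba (higher) were.

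Sequencing depth ranged from 7.55 to 17.4 M counts. In 11 libraries the ribosomal RNA precursor Rn45s took 1.41% to 7.83% of the counts, but in DMSO Ova A (the library of mouse A in that group) it took 77.4%, which left 1.77 M other counts against 7.25 to 16.9 M elsewhere. In that library the members still had 107 (Rac2) to 1644 (Cybb) counts. Levels are given as CPM, counts relative to a library size scaled by the TMM method. Defining macrophage markers were present, since all 9 (Csf1r, Adgre1, Cd68, Itgam, Mertk, Fcgr1, Cd14, Lyz2 and C1qa) were detected in every library. Their summed level was 6750.2 to 7945 CPM in DMSO Ova, 7398 to 8855 in iBET Ova, 6572 to 7546 in DMSO IC and 7959.9 to 8827 in iBET IC. Neutrophils express the same oxidase, and 11 neutrophil markers summed to 18.0 to 60.7 CPM. Of the 6 that could be tested 0 were called in any comparison, where up to 34.8% of all genes were. At such low levels the test could miss sizeable changes. In mice A, B and C the neutrophil sum was 18.0, 36.2 and 60.6 CPM in DMSO Ova and 23.2, 53.3 and 60.7 in iBET Ova. It was 21.5, 42.5 and 55.7 in DMSO IC and 25.4, 31.2 and 49.5 in iBET IC. The groups thus overlapped, and the sum rose from mouse A to B to C in each. Its part in the oxidase values was not tested. Summed dendritic cell, lymphocyte, and stromal and erythroid markers reached at most 1.55, 1.61 and 2.05 CPM, with Nkg7, Hbb-bt and Hba-a1 at 0 in every library. Mertk was called higher with iBET in both stimulations (by 0.77 and 1.25 on the log2 scale) and Lyz2 in IC (0.41), the calls of Mertk in Ova and of Lyz2 being lost with some libraries or mice left out, and that of Mertk also with the compared groups alone (adjusted p up to 0.231 for Mertk and 0.151 for Lyz2). The dendritic marker Zbtb46, at 0.197 to 0.977 CPM as group means, was called higher in Ova, and no other marker of these types was called.

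**Figure D1:**
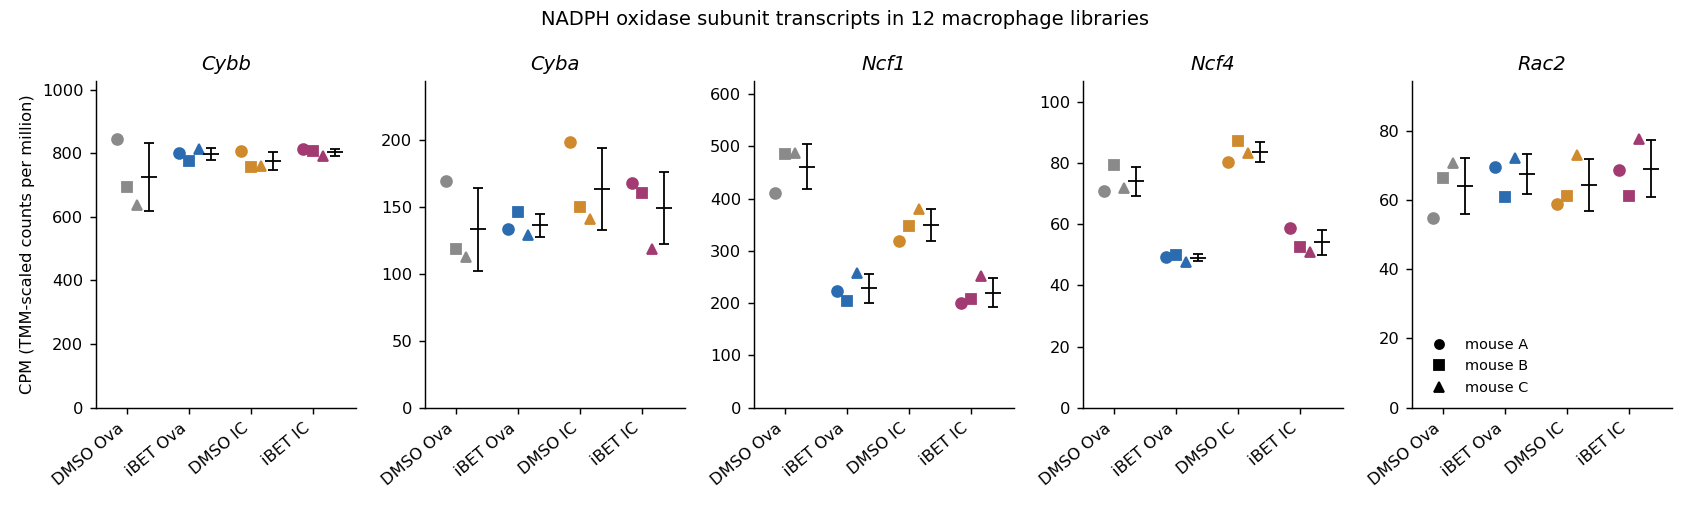
Level of each subunit transcript in CPM (counts relative to the TMM-scaled library size, linear axes from 0) in the 12 libraries by group. Symbols are mice A, B and C, and the bar beside them is the mean with its SD (n = 3). Ncf1 and Ncf4 sit lower in both iBET groups with no overlap, while the groups overlap for Cybb, Cyba and Rac2.

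The genes lie on 4 chromosomes of the mouse genome build GRCm38 (mm10), by the GENCODE vM21 annotation. Cybb is at chrX:9435252-9487771, Cyba at chr8:122424776-122432930, Ncf1 at chr5:134220053-134229625 and Rac2 at chr15:78559167-78572783, all on the minus strand, and Ncf4 is at chr15:78244801-78262580 on the plus strand. All are protein-coding, and counts were summed over a gene. Gtf2ird2 on the opposite strand covers 408 of the 3663 exon bases of Ncf1 (11.1%). The strand setting of the counting is not given in the sources used here, so reads from those bases cannot be assigned with certainty. Gtf2ird2 itself had 14 to 67 counts a library against 800 to 6340 for Ncf1.

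Because Ncf1 fell with iBET while its membrane partners Cybb and Cyba were not called, the sequences just before and after their transcription starts are shown side by side. RefSeq windows on build GRCm38.p6 were matched for 3 of the 5 genes. Those of Ncf1 and Cyba lie at the 5′ ends of the gene spans given above. The Cybb window lies inside its span, so its RefSeq start is not the outermost annotated 5′ end. Each is printed 5′ to 3′ from 150 bases before to 30 bases after the start. Capitals mark matches on either strand to GAGGAA (a longer form of the GGAA core bound by ETS factors such as PU.1), GAAANNGAAA (an interferon regulatory factor type of element), CCAAT or GGGCGG (a GC box). The GGAA core itself was not marked, and its letters occur on either strand in lower case in each stretch.
Ncf1, chr5:134229596-134229775, minus strand: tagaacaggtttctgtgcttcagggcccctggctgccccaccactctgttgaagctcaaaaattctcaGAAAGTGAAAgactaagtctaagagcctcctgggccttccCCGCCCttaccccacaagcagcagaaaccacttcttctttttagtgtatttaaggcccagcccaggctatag
Cybb, chrX:9469295-9469474, minus strand: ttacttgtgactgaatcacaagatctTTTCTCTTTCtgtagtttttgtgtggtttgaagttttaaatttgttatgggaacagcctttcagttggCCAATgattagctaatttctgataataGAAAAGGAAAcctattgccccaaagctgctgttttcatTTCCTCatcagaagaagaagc
Cyba, chr8:122432911-122433090, minus strand: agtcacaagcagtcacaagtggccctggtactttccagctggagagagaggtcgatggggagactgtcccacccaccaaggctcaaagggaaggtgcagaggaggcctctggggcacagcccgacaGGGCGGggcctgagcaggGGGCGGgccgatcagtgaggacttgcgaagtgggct
The capitals in Ncf1 are 1 GAAANNGAAA match that begins 82 bases before the start and 1 GGGCGG match, on the opposite strand, 42 bases before it. Cybb held 2 GAAANNGAAA matches in the stretch shown, 124 (opposite strand) and 29 bases before the start, a CCAAT 56 bases before it and a GAGGAA match on the opposite strand 10 bases after it. Cyba held 2 GGGCGG matches, 24 and 6 bases before the start, and neither GAGGAA nor GAAANNGAAA. The matches shown do not overlap one another. Of 32851 RefSeq windows of 300 bases, 28.3% held GAGGAA, 3.44% GAAANNGAAA, 37.4% CCAAT and 35.7% GGGCGG, so the letters of all but the GAAANNGAAA element are common. A match describes letters only, and binding was not measured.

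Among the membrane subunits, Cybb was at 844, 694 and 637 CPM in DMSO Ova (mice A, B and C), 800, 775 and 812 in iBET Ova, 807, 756 and 759 in DMSO IC and 812, 807 and 791 in iBET IC. Its group means lay within 1.11-fold of each other, from 725 ± 107 CPM in DMSO Ova to 804 ± 11.0 in iBET IC (SD, n = 3). The 3 DMSO Ova libraries spanned the values of all others. The top of that span was DMSO Ova A, the library with 77.4% Rn45s. The other DMSO Ova libraries lay below every library of the other groups. Without DMSO Ova A the log2 fold change with IC in DMSO was 0.19, and Cybb was called in neither comparison with DMSO Ova. The log2 fold change with iBET was 0.14 in Ova (95% interval -0.09 to 0.36, edgeR adjusted p = 0.357) and 0.05 in IC (-0.17 to 0.28, adjusted p = 0.724). With immune complex it was 0.10 in DMSO (-0.13 to 0.32, adjusted p = 0.845) and 0.01 in iBET (-0.21 to 0.24, adjusted p = 0.997). These intervals do not reach a change of the size seen in Ncf1 or Ncf4 in either direction with iBET.

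Cyba was at 169, 118 and 113 CPM in DMSO Ova, 133, 146 and 129 in iBET Ova, 199, 150 and 141 in DMSO IC and 168, 161 and 119 in iBET IC. It varied more between mice than Cybb did, and mouse A gave the highest value in 3 of the 4 groups. The value of 169 in DMSO Ova rests on 329 counts in DMSO Ova A, the library with 77.4% Rn45s. In the other DMSO Ova libraries Cyba lay below every iBET Ova library, but without DMSO Ova A it was still not called with iBET in Ova. The log2 fold change of Cyba with iBET was 0.04 in Ova (95% interval -0.35 to 0.44, adjusted p = 0.882) and -0.13 in IC (-0.52 to 0.26, adjusted p = 0.607). In DMSO all 3 mice had more Cyba with immune complex, by 0.23, 0.34 and 0.33 on the log2 scale, but the groups overlapped and the fitted value of 0.31 (-0.09 to 0.70) did not pass (adjusted p = 0.602). It passed only where 1 surrogate variable was added to the model (0.40, adjusted p = 0.0271).

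Ncf1 was the member that moved most. It was at 411, 486 and 487 CPM in DMSO Ova, 224, 203 and 258 in iBET Ova, 319, 348 and 380 in DMSO IC and 201, 207 and 253 in iBET IC. All 6 iBET libraries lay below all 6 DMSO libraries, as they did for Ncf4, so 2 of 5 members had non-overlapping groups with iBET, where 45.1% of all genes did in Ova and 48.6% in IC. Within DMSO every IC library of Ncf1 lay below every Ova library. With iBET in Ova the fitted log2 fold change was -1.01 (SE 0.13, 95% interval -1.29 to -0.74, adjusted p = 9.58e-05), with -0.88, -1.26 and -0.91 in mice A, B and C. With iBET in IC it was -0.67 (SE 0.13, -0.94 to -0.39, adjusted p = 0.00154), with -0.67, -0.75 and -0.59 in the mice. Of all genes tested, 7.42% fell further than Ncf1 in Ova and 15.4% did in IC. Without DMSO Ova A the change in Ova was -1.14. Without mouse B the change in IC was -0.63 and no longer passed (adjusted p = 0.0576), whereas the call in Ova stood (adjusted p = 0.0232). Fewer cells with the transcript and less of it per cell cannot be told apart in these bulk libraries. The summed macrophage markers were higher with iBET in IC without overlap and overlapped in Ova, and their part in the result was not tested. Lyz2 was the largest part of that sum, with means of 3030 CPM in DMSO IC and 4026 in iBET IC. Fcgr1 was lower (176 and 106), and Csf1r (945 and 928) and Cd68 (913 and 911) were near level, these 3 not being called. The other listed markers had higher means in iBET IC.

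Ncf1 was the 1 member whose difference with immune complex passed that unadjusted threshold. In DMSO its log2 fold change with IC was -0.40 (SE 0.13, 95% interval -0.68 to -0.13), which missed the threshold after adjustment over all genes (adjusted p = 0.177). All 3 mice were lower with IC, by -0.36, -0.48 and -0.36, and with the mouse as a replicate block the difference passed (-0.40, adjusted p = 0.0355 in edgeR and 0.00657 in DESeq2). It also passed with 1 surrogate variable (-0.45, adjusted p = 0.0163). In iBET the change with IC was -0.05 (-0.33 to 0.22, adjusted p = 0.965). The difference between the 2 responses, 0.35 (-0.04 to 0.74), was tested as an interaction and did not pass (adjusted p = 1.00), although it had the same sign in all 3 mice. In this test edgeR called 0 of 11468 genes (0%), with 2.55% under an unadjusted p of 0.05, and DESeq2 called 4, none of them a member.

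Ncf4 was at 70.9, 79.4 and 71.96 CPM in DMSO Ova, 49.2, 50.1 and 47.8 in iBET Ova, 80.5, 87.1 and 83.2 in DMSO IC and 58.8, 52.7 and 50.8 in iBET IC. The 4 groups did not overlap in any of the 4 comparisons. With iBET the log2 fold change was -0.60 in Ova (SE 0.09, 95% interval -0.80 to -0.40, adjusted p = 0.000393) and -0.63 in IC (SE 0.09, -0.82 to -0.43, adjusted p = 0.000218), and all 3 mice were lower in each. The calls stood in every alternative tried, with the highest adjusted p in Ova, 0.0418, without mouse B. The change with immune complex was upward in the fit, unlike that of Ncf1, at 0.17 in DMSO (-0.03 to 0.37, adjusted p = 0.523) and 0.14 in iBET (-0.05 to 0.34, adjusted p = 0.80), and did not pass. Thus 2 of 5 members (Ncf1 and Ncf4) had non-overlapping groups with IC in DMSO, as did 15.3% of all genes, and 1 of 5 (Ncf4) in iBET, as did 18.9%.

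Rac2 was at 55.0, 66.4 and 70.8 CPM in DMSO Ova, 69.5, 60.9 and 72.1 in iBET Ova, 58.8, 61.2 and 72.9 in DMSO IC and 68.6, 61.0 and 77.5 in iBET IC. Mouse C was highest in each group, and the group means, 64.1 to 69.1 CPM, differed by less than the spread between mice. The log2 fold change with iBET was 0.06 in Ova (95% interval -0.22 to 0.35, adjusted p = 0.76) and 0.10 in IC (-0.18 to 0.38, adjusted p = 0.573). With IC it was -0.01 in DMSO (-0.29 to 0.28) and 0.03 in iBET (-0.25 to 0.31). The median log2 fold change of the 5 members with iBET was 0.04 in Ova and -0.13 in IC, beside 0.02 and -0.0037 over all genes.

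**Figure D2:**
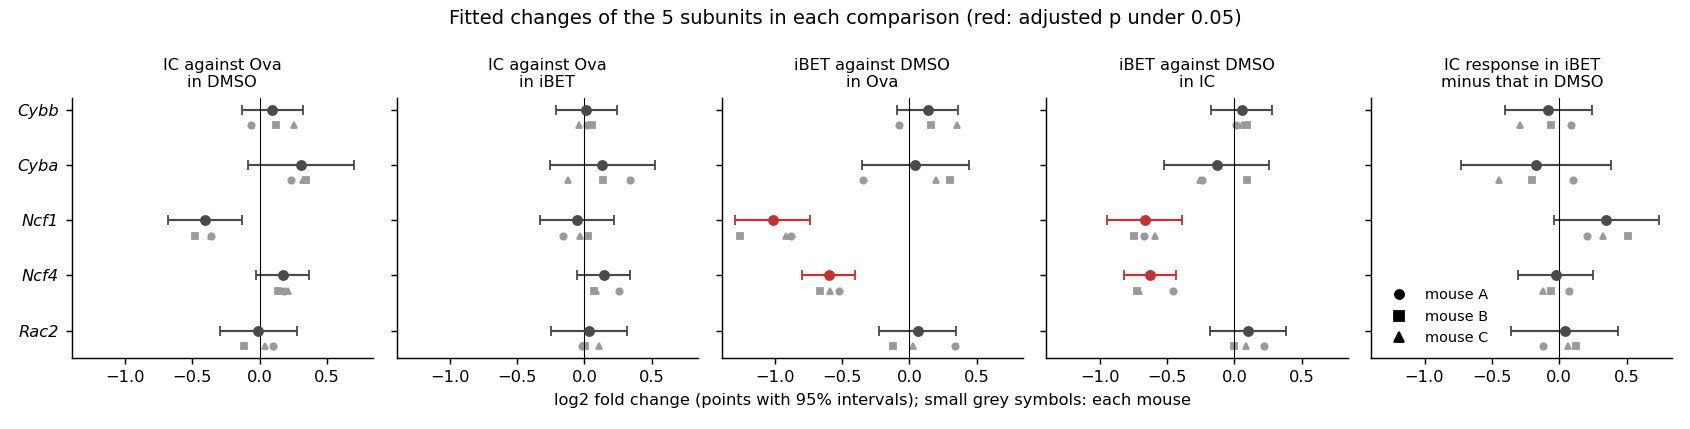
Fitted log2 fold change (point) with its 95% interval for each subunit in the 4 comparisons and in the test of the difference between the IC responses, with each mouse's own difference below as a grey symbol. Red marks an adjusted p under 0.05, which Ncf1 and Ncf4 reached in both iBET comparisons. For Ncf1 the interval with IC in DMSO runs from -0.68 to -0.13, yet the adjusted p was 0.177.

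The subunits act as a complex, so levels were also set against Cybb within each library, on the scale of CPM per kilobase of the longest annotated coding transcript. In DMSO Ova, Cyba (179 ± 41.7 CPM per kb), Ncf1 (160 ± 15.2) and Cybb (153 ± 22.5) had like levels whose ranges overlapped, Ncf4 was lower at 50.6 ± 3.18 and Rac2 lowest at 21.1 ± 2.69 (SD, n = 3). With all annotated exon bases as the length the first 3 came to 128, 126 and 125 CPM per kb, so their order rests on the length used. Per 100 of Cybb, Ncf1 stood at 107 ± 24.0 in DMSO Ova, 47.3 ± 4.69 in iBET Ova, 74.6 ± 8.72 in DMSO IC and 45.3 ± 6.43 in iBET IC. Ncf4 stood at 33.7 ± 5.57, 20.0 ± 0.93, 35.1 ± 2.53 and 21.9 ± 1.44 in the same order. The iBET and DMSO libraries did not overlap for either ratio in Ova or IC (two-sided exact permutation test, p = 0.1 each, the smallest that 3 against 3 libraries allow, adjusted p = 0.2 over 10 ratio tests). Cyba per 100 of Cybb (109 to 134 as group means) and Rac2 per 100 of Cybb (13.03 to 14.2) overlapped between drug arms in both stimulations (exact p from 0.4 to 0.8). The ratio of Ncf1 to Ncf4 was lower with iBET in Ova without overlap, by -0.42 on the log2 scale (exact p = 0.1), but not in IC, where it differed by -0.04 (exact p = 0.8).

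**Figure D3:**
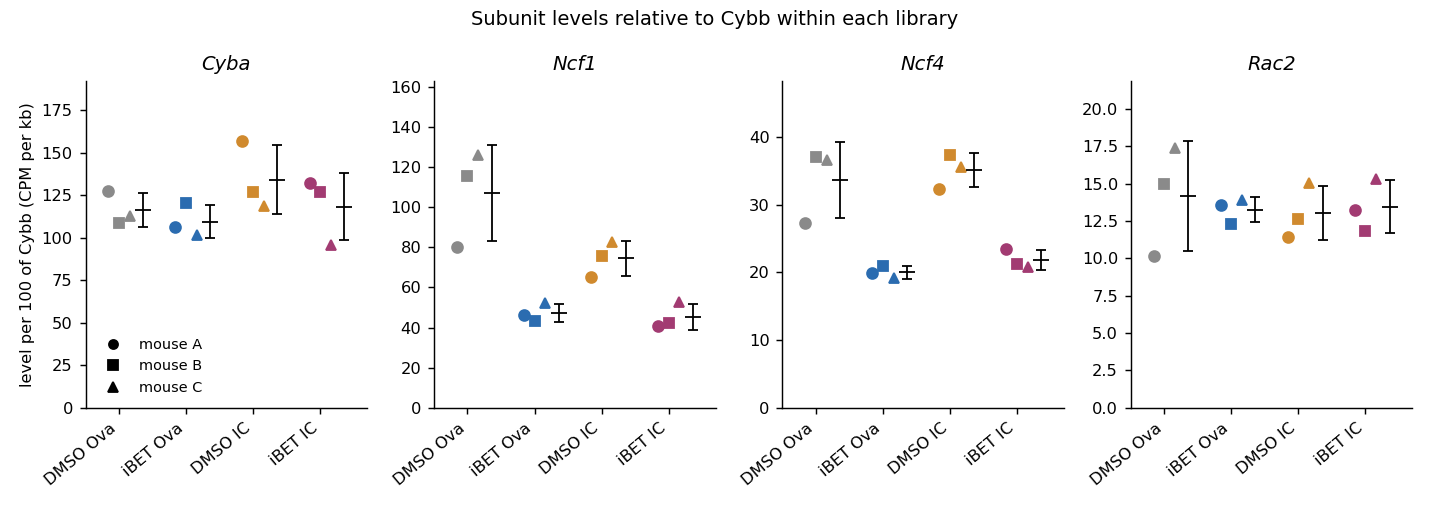
Level of 4 subunits per 100 of Cybb in the same library (CPM per kb, linear axes from 0), by group, with symbols for mice A, B and C and the mean with its SD (n = 3). Ncf1 drops from 107 to 47.3 in Ova and from 74.6 to 45.3 in IC with iBET, and Ncf4 from 33.7 to 20.0 and from 35.1 to 21.9, while Cyba and Rac2 overlap.

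Among other oxidase genes and homologues, 11 of 12 listed were in the table and 5 could be tested. Nox1, the homologue of Cybb known from colon epithelium, was low at 6.58 ± 1.62 CPM in DMSO Ova and fell with iBET by 1.10 and 0.98 on the log2 scale (Ova and IC, adjusted p = 0.0041 and 0.00471), both calls being lost without mouse C (0.0697 and 0.0792). The annotated span of Nox1 overlaps Xkrx on the same strand and Cstf2 and Arl13a on the opposite strand. Whether its few counts come from those genes was not tested. Rac1, at 252 CPM in DMSO Ova where Rac2 was at 64.1, was not called, nor were Rac3, Rap1a and Rap1b. The 6 untested genes (Nox3, Nox4, Noxa1, Noxo1, Duox1 and Duox2) had at most 5 counts in any library.

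Among 15 tested genes of the Rac cycle, which load Rac with GTP or hydrolyse it, iBET raised 2 and lowered 4 in Ova and likewise in IC (list median log2 fold change -0.17 and -0.14, beside 0.02 and -0.0037 over all genes). Called in each were 6 of the 15, beside 31.3% of all genes with iBET in Ova and 34.8% in IC. Bcr, a Rac GTPase-activating protein, rose by 1.16 and 1.24 on the log2 scale (adjusted p = 0.000768 and 0.000311), and the exchange factor Sos1 by 0.74 and 0.76 (adjusted p = 3.58e-05 and 2.27e-05). The exchange factors Dock5 (-0.82 and -0.68, adjusted p = 6.97e-05 and 0.000222) and Vav3 (-0.78 and -0.70, adjusted p = 0.00314 and 0.00483) fell, Vav3 losing both calls without mouse B (adjusted p = 0.0733 and 0.0909). Tiam1 and Abr, named after their values were seen, were the other genes lower in both. Dock2 and Prex1 were not called. Immune complex called 0 of the 15 in either arm.

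Of 20 tested kinases and lipid enzymes that act upstream of assembly, iBET raised 6 and lowered 3 in Ova, and raised 8 and lowered 2 in IC (list median 0.04 and 0.12). Thus 9 and 10 of the 20 were called, beside 31.3% and 34.8% of all genes. The protein kinase C genes Prkce (1.24 and 1.54, adjusted p = 0.000288 and 3.97e-05) and Prkca (1.37 and 1.39, adjusted p = 0.00149 and 0.001), whose family phosphorylates p47phox, rose from low levels of 9.71 and 3.53 CPM in DMSO Ova. Of the more abundant genes of that family, named after their values were seen, Prkcb (173 CPM in DMSO Ova) was called at 0.34 and 0.48 (adjusted p = 0.0498 and 0.00941), whereas Prkcd (231 CPM) was not (-0.16 and 0.02, adjusted p = 0.453 and 0.917). The call of Prkcb in Ova lies just under the threshold, and its calls were not followed through the alternatives. Pik3r1, a regulatory subunit of phosphoinositide 3-kinase, rose by 1.03 and 1.08 (adjusted p = 8.96e-06 and 5.19e-06), and the p38 kinase gene Mapk14 by 0.31 and 0.59 (adjusted p = 0.0168 and 0.000271). Leaving out mouse B ended the call of Prkca in IC (adjusted p = 0.0512). That of Mapk14 in Ova was lost without DMSO Ova A (0.0740), DMSO Ova B (0.0580) or iBET Ova A (0.0568), without mouse A (0.0695), B (0.180) or C (0.106), and with the compared groups alone (0.0752). The 2 genes lower in IC, named after their values were seen, were Akt2 and Syk, the kinase that Fcγ receptors recruit. Akt2 changed by -0.55 there (adjusted p = 0.0118) and by -0.67 with free ovalbumin (adjusted p = 0.0046). For Syk the changes were -0.49 with immune complex (adjusted p = 0.00317) and -0.61 with free ovalbumin (adjusted p = 0.000915). Both genes were thus called lower under either stimulus. Immune complex called 0 of the 20 in either arm, beside 1.22% of all genes in DMSO and 0.349% in iBET.

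Of 12 tested genes for the proton channel and for enzymes that handle the products of the burst, iBET raised 2 and lowered 1 in Ova and raised 4 and lowered 1 in IC (list median 0.17 and 0.23). That is 3 and 5 of the 12 called, beside 31.3% and 34.8% of all genes. Gpx1, a glutathione peroxidase, rose from 284 ± 48.6 to 553 ± 88.7 CPM in Ova and from 346 ± 58.9 to 949 ± 133 in IC (log2 0.96 and 1.46, adjusted p = 0.00119 and 5.56e-05). Hvcn1, the voltage-gated proton channel that balances the charge moved by the oxidase, fell by 1.04 (Ova) and 0.84 (IC) on the log2 scale, with adjusted p = 0.00813 and 0.018. Its level was low, at 13.9 ± 5.49 CPM in DMSO Ova and 7.19 ± 0.99 in iBET Ova, and in Ova it was lower in 2 of 3 mice. Its calls were lost without mouse B (adjusted p = 0.173 and 0.155) or C (0.0954 and 0.106), and in IC also without DMSO IC B (0.0778), iBET IC A (0.0607) or iBET IC C (0.0536). Prdx1 (0.51) and Cat (0.37) passed in IC (adjusted p = 0.00372 and 0.0207). Prdx1 lost its call without mouse B or C (0.0750 and 0.0815), and Cat without DMSO IC A (0.0970), iBET IC B (0.0712), iBET IC C (0.0850), mouse B (0.216) or mouse C (0.125), and with the compared groups alone (0.0506). With immune complex 1.22% of all genes were called in DMSO and 0.349% in iBET. Sod2, the mitochondrial superoxide dismutase, was the 1 gene of this list called with immune complex in both arms and is named after its values were seen. It was also among the genes raised by iBET, by 0.62 in Ova (adjusted p = 0.000186) and 0.28 in IC (adjusted p = 0.0203). That iBET call in IC was lost without mouse A (0.0717), B (0.195) or C (0.106), and in other alternatives. With IC, Sod2 rose by 0.89 in DMSO (adjusted p = 0.000676) and by 0.55 in iBET (adjusted p = 0.0118). The IC call in DMSO was lost without mouse B (0.285) or C (0.0690) and with the compared groups alone (0.0640). In iBET it was lost without mouse B (1.00) or C (0.318) and without iBET Ova A (0.0748), iBET Ova B (0.0917), iBET Ova C (0.0545), iBET IC A (0.0685) or iBET IC B (0.0752).

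Of 11 tested transcription factors linked in the field to oxidase genes, iBET raised 4 and lowered 2 in Ova, and raised 4 and lowered 1 in IC (list median -0.02 and -0.0051). Hence 6 and 5 of the 11 were called, beside 31.3% and 34.8% of all genes. Spi1 encodes PU.1, an ETS factor known to act at promoters of oxidase genes. It fell from 192 ± 24.7 to 66.0 ± 3.26 CPM in Ova and from 241 ± 10.8 to 71.7 ± 7.81 in IC (log2 -1.54 and -1.75, adjusted p = 2.34e-06 and 7.61e-07). The C/EBP genes Cebpd (1.00 and 1.08, adjusted p = 0.043 and 0.0217) and Cebpa (0.86 and 0.85, adjusted p = 0.00595 and 0.00507) rose, and Meis1 rose in IC (0.79, adjusted p = 0.0187). The call of Cebpd in Ova was lost when any 1 library apart from DMSO Ova A, DMSO IC A or DMSO IC B was left out (adjusted p up to 0.174), without a filter on low counts (0.0616) and with the compared groups alone (0.0765). In IC it was lost without DMSO IC B (0.0693), DMSO IC C (0.0569), iBET IC A (0.0562) or iBET IC C (0.0559), and in both without mouse B (0.319 and 0.147) or C (0.346 and 0.162). Without mouse A the calls of Cebpa ended (adjusted p = 0.118 and 0.113), and in IC also without mouse B (0.0526). Meis1 lost its call without DMSO IC C (0.0696), iBET IC B (0.0576), iBET IC C (0.0503), mouse B (0.135) or mouse C (0.165). The other calls in this list, named after their values were seen, were Irf8 (higher in both), Irf1 (higher) and Nfkb1 (lower) in Ova. Immune complex called Cebpb in DMSO (0.71, adjusted p = 0.0279) and Nfkb1 in iBET (0.76, adjusted p = 0.00771), likewise named afterwards. Without mouse B, 0 genes were called with IC in either arm, so both of these calls were lost there. The Spi1 values stand beside those of Ncf1 and Ncf4 as measurements, and a link between them was not tested.

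**Figure D4:**
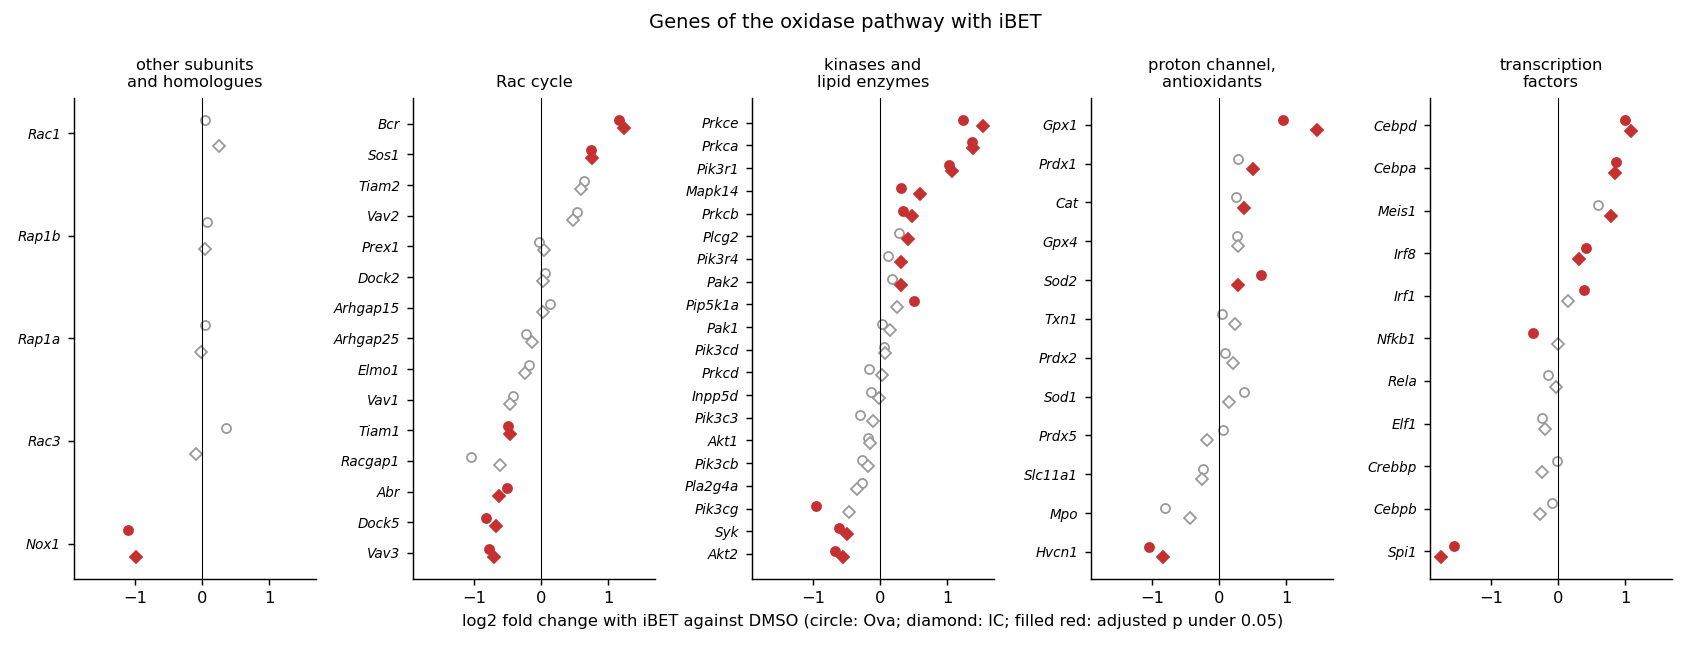
Log2 fold change with iBET against DMSO in Ova (circles) and IC (diamonds) for each tested gene of the 5 pathway lists, ordered within a list by the value in IC. Filled red symbols passed an adjusted p under 0.05, from Spi1 at -1.75 in IC to Prkce at 1.54 in IC.

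The genes whose pattern over the 12 libraries was nearest to each member were sought among 8046 genes with a mean of at least 10 CPM, by the root mean square (RMS) difference in log2 CPM after centring each gene on its mean. Nearest to Ncf1 were Irgm2 (RMS 0.096), an immunity-related GTPase, and Unc13d (0.12), a factor of granule secretion. Nearest to Ncf4 were Lat2 (0.085), an adaptor of immune receptors, and Ankrd28 (0.088). For these genes the likeness spans the drop in all 6 iBET libraries, since the members themselves varied with SDs of 0.46 (Ncf1) and 0.32 (Ncf4) over the libraries. Ncf4 was the 384th nearest of the 8046 genes to Ncf1 (RMS 0.29), where the other members ranked from 2915th (Rac2) to 4536th (Cyba). Ncf1 was the 1417th nearest to Ncf4. Cybb (SD 0.11) was nearest to Srp68 and Pkn2, Cyba (SD 0.24) to Ppp4r2 and Myo10, and Rac2 (SD 0.14) to Gusb and Mrpl16, at RMS 0.059 to 0.090. The libraries share mice and groups, so the measure is a description.

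**Figure D5:**
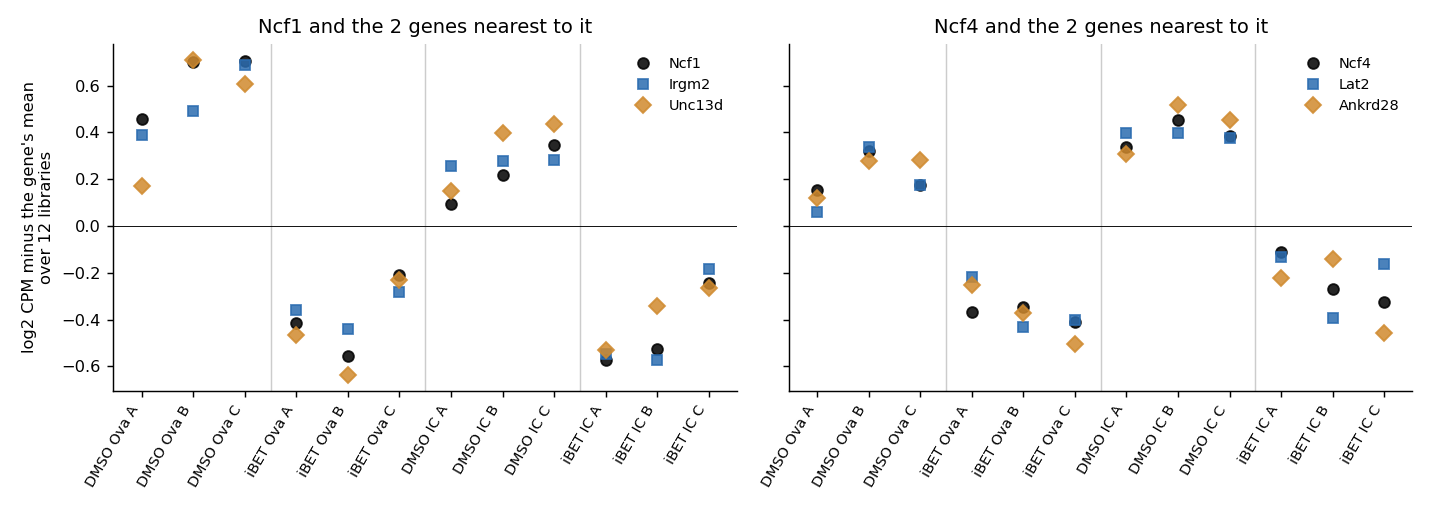
Log2 CPM minus each gene's mean over the 12 libraries, for Ncf1 with Irgm2 and Unc13d and for Ncf4 with Lat2 and Ankrd28, with 1 position per library and vertical lines between groups. In both panels all 6 DMSO libraries lie above 0 and all 6 iBET libraries below 0.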

How the data were processed

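The authors made the counts deposited per gene symbol: after CASAVA demultiplexing, the first 3 bases of read 1, adaptors and bases under Phred 30 were removed with Trim Galore, reads were aligned to mm10 with HISAT2, and genes were counted with featureCounts. Strand setting, annotation and software versions are not given in the sources used here. A second deposited table of normalized values was not used. Libraries came from a low-input total RNA kit, and no spike-in was described, so levels are relative within a library. The labels say cells were sorted into lysis buffer, whereas the study's methods describe lysis in culture.

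Groups came from the labels. Counts were fitted with edgeR 4.0.16 (R 4.3.3; TMM, filterByExpr with minimum count 10, robust quasi-likelihood fit, all 12 libraries, 1 term per group), with two-sided tests and Benjamini-Hochberg adjustment over 11468 genes. Precision is limited by 3 libraries a group. CPM values use TMM-scaled library sizes, and log2 CPM a prior count of 2. Alternatives were DESeq2 1.42.0, its size factors, 2 filters, the mouse as replicate block, 1 surrogate variable (sva 3.50.0), the compared groups alone, removal of Rn45s, and each library or mouse left out. The code was checked on simulated data. Replicates come from separate mice, and the labels pair them: over 18 pairs of libraries from the same mouse, deviations from the group means correlated at -0.07 to 0.54, and over 36 pairs from different mice at -0.50 to 0.27.

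The members and gene lists were chosen with earlier results of these data known. Some listed genes are not reported here and are left out of the counts, medians and summed levels of their lists. Named were the 5 members, up to 4 genes per list called in at least 1 comparison, by size of change with iBET in IC, and the 2 genes nearest in pattern to each member. Calls of the 5 members, of the up to 4 genes per list and of Sod2 were followed through the alternatives. Calls of the other genes named after their values were seen were not followed gene by gene. Promoter sequences were RefSeq's (GRCm38.p6).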

Additional observations from a re-analysis of the deposited data

How the results depend on the processing

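Ncf1 and Ncf4 were called lower with iBET in Ova under all 24 alternatives, so that count of 2 members was unchanged, and in IC under all but 1: without mouse B (replicate 2) only Ncf4 was called, so the count of members ranged from 1 to 2 over the fits that left out a library or mouse. With immune complex in DMSO the count of members called was 0, but it was 1 (Ncf1) with the mouse as a replicate block in edgeR, 1 (Ncf1) with that block in DESeq2, and 2 (Ncf1 lower, Cyba higher) with 1 surrogate variable. The replicate block changed no other call of a member. Values near 0 changed sign when 1 library or mouse was left out. For Rac2 they ranged from -0.12 to 0.068 with IC in DMSO, from -0.058 to 0.11 with IC in iBET, from -0.072 to 0.16 with iBET in Ova, and from -0.050 to 0.16 for the difference between IC responses. Rac2 with IC in iBET was also -0.0070 with 1 surrogate variable. For Cyba they ranged from -0.089 to 0.22 with iBET in Ova and from -0.24 to 0.010 with iBET in IC. For Cybb they ranged from -0.0094 to 0.040 with IC in iBET and from -0.17 to 0.017 for the difference, for Ncf1 from -0.16 to 0.043 with IC in iBET, and for Ncf4 from -0.093 to 0.031 for the difference. The cause was not tested.

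Counts over all genes moved more. With IC in DMSO 140 genes were called, against 268 in DESeq2, 315 and 427 with the block in edgeR and DESeq2, 435 with 1 surrogate variable, 5 with the compared groups alone, and 0 to 159 with a library or mouse left out. With IC in iBET it was 40, against 113, 85, 177, 115, 99 and 0 to 305 in the same order. With iBET, 3593 genes in Ova ranged from 1310 (without mouse B) to 3899 and 3987 in IC from 1769 (without mouse B) to 4469 over the fits that left out a library or mouse. The difference between responses called 0 genes, 4 in DESeq2, 6 in DESeq2 with the block and 0 to 1 with a library or mouse left out. DESeq2 size factors moved the median of all genes by less than 0.1 (log2) in each comparison.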
